A study of Mus musculus with 10 samples.

Results

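DNA replication and mitotic cell cycle genes were followed in metanephric mesenchyme that lacked the ligand Wnt9b. The genes were taken from a list of 47 that was chosen with earlier results of these data known. Of the listed genes, 29 act in DNA replication or at the start of S phase and 18 act in mitosis. A gene was measured when the platform annotation gave it at least 1 probe set carrying its symbol alone, and its brightest probe set by the mean over all arrays stood for it. This gave 46 of the 18193 genes measured, all 29 replication genes and 17 mitotic genes. Ccnb1 had no such probe set and is not analysed here.

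The tissue was the mesenchyme of E11.5 mouse kidneys, taken as 5 pools of genotype Wnt9b-/- (mutant) and 5 of Wnt9b+/+ littermates (wild type), each pool on its own array. A pool held 25 to 30 mesenchymes digested with trypsin and pancreatin to free them of ureteric bud, and the labels name no treatment. The sample labels give the control genotype as +/+, whereas the series' design text names heterozygotes (Wnt9b+/-), and the sample labels were followed. Replicate numbers only name the arrays. Each array therefore averages many embryos and all cell types of the dissected mesenchyme, and in such bulk RNA fewer cycling cells cannot be told apart from less RNA per cycling cell.

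As background, cells load the Mcm helicase onto replication origins before S phase begins. Replication then uses polymerases, clamp loaders and nucleotide synthesis, and the genes of this programme are driven largely by E2F transcription factors. Genes for mitosis peak later, in G2 and M phase, and their promoters are typically controlled through NF-Y boxes and the cell cycle homology region (CHR), an element bound by the DREAM and MuvB complexes. Wnt9b is made by the ureteric bud and acts on the adjoining mesenchyme, where it is known for nephron induction and for the upkeep and proliferation of nephron progenitors.

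Every replication gene had a lower mean signal in the mutant, by small amounts, and no single gene passed the test. The difference in log2 signal (mutant minus wild type, on the scale log2 of signal plus 1) had a median of -0.17 over the 29 replication genes and ranged from -0.50 for Uhrf1 to -0.013 for Ccne1. Over the 17 mitotic genes the median was -0.069, with 14 lower and 3 higher, from -0.21 for Kif11 to +0.10 for Cenpe. Over all 18193 genes the median was +0.025 and 45.1% were lower. That background moved with the scaling, to 56.2% lower (median -0.033) with median centring and 50.2% lower with quantile normalization. Under those scalings all 29 replication genes were lower (medians -0.23 and -0.19), as were 16 and 14 of the mitotic genes (medians -0.13 and -0.062). Among the 10254 genes at least as bright as the dimmest replication or mitotic gene, 44.8% were lower, with a median of +0.018. With limma, none of the 29 replication and none of the 17 mitotic genes was called at an adjusted p under 0.05, against 0.0055% of all genes (1 gene). At an unadjusted p under 0.05, 5 of the 29 replication genes were lower (Uhrf1, Ung, Cdc6, Mcm2 and Rrm2) and none was higher, against 2.08% of all genes lower and 3.41% higher. None of the mitotic genes reached that level in either direction. The signals of the genotypes did not overlap for Uhrf1 and Ung, both lower in the mutant, whereas 0.555% of all genes were without overlap and lower and 0.654% without overlap and higher.

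Leaving out 1 array at a time gave 25 to 29 replication genes lower, the fewest without wild-type replicate 3, and 12 to 16 mitotic genes lower. In these runs 43.1% to 46.9% of all genes were lower. The count of 5 at an unadjusted p under 0.05 became 3 when mutant replicate 1 or 3 was left out, 3 when wild-type replicate 2, 3 or 5 was, and 4 or 5 for the remaining arrays. The arrays formed 2 sets by the 5′ control probe set for 18S ribosomal RNA, 4 arrays with high and 6 with low signal, each with as many mutant as wild-type arrays. Within the high-18S arrays 27 of 29 replication genes (median -0.22) and 15 of 17 mitotic genes (median -0.13) were lower, and 3 replication genes were lower at an unadjusted p under 0.05, where 51.5% of all genes were lower and 3.44% lower at that p. Within the low-18S arrays the counts were 27 of 29 (median -0.14) and 9 of 17 (median -0.022), and no replication gene reached that p, where 42.7% of all genes were lower and 1.41% lower at that p. Most replication genes were thus lower in both array sets, whereas the mitotic genes were evenly split in the larger one. Both sets are parts of the arrays already compared, so their counts are no independent check.

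**Figure D1:**
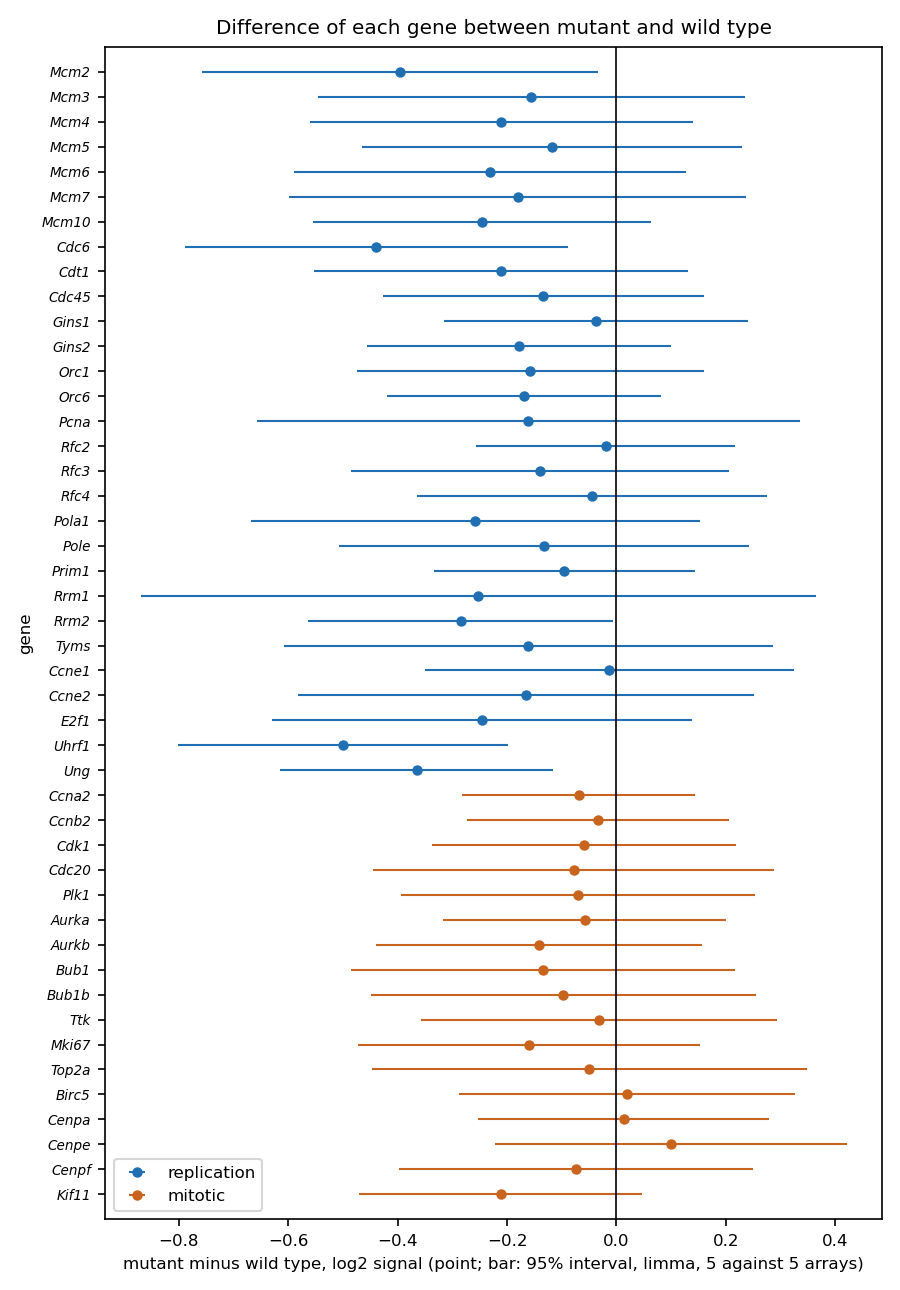
Difference between mutant and wild type in log2 signal for each of the 46 genes (x axis), with 95% intervals from limma over 5 against 5 arrays. All 29 replication genes (blue) lie left of 0 and 5 of their intervals exclude 0, whereas the 17 mitotic genes (orange) lie between -0.21 and +0.10 and every interval includes 0.

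The promoters of these genes are shown because the shares of genes with an E2F or a CHR motif differed between the replication and the mitotic genes, a comparison that does not use the arrays. Promoter windows from RefSeq (GRCm38.p6), running from 250 bases before to 50 bases after each gene's start, were found for 23 of the 29 replication and 16 of the 18 mitotic genes, Ccnb1 included. The E2F motif was searched as TTTCCCGC, TTTGGCGC, TTTCGCGC or TTTGCCGC, the CHR as TTTGAA or, in its other form, TTCGAA, and the NF-Y box as CCAAT, each on both strands; none of these strings contains another. An E2F match lay in 10 of 23 replication genes (43.5%), in 1 of 16 mitotic genes (6.25%, Cdk1) and in 2.60% of the 27025 genes of the table. A gene with several annotated starts had several windows, and with only the first window of each gene the shares were 39.1%, 6.25% and 2.32%. A CHR match lay in 13 of 16 mitotic genes (81.2%), in 4 of 23 replication genes (17.4%) and in 21.7% of all genes. The NF-Y box was found in 15 of 16 mitotic genes (93.8%), 16 of 23 replication genes (69.6%) and 41.1% of all genes. All 13 mitotic genes with a CHR match also had an NF-Y match, a combination held by 9.65% of all genes. For the 14452 genes of the table that were measured on the arrays, the shares were 3.81% (E2F), 17.5% (CHR), 42.0% (NF-Y box) and 8.25% (CHR with NF-Y box). A match describes the letters in the window and is no evidence of binding.

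For the 3 genes of each kind with the smallest p among those with the motif before the start (Bub1, whose match lies after it, was passed over), 80 bases of that promoter (30 for Uhrf1) are printed 5′ to 3′ in the direction of the gene. Capitals mark matches to the E2F, CHR or NF-Y letters on either strand. The E2F matches are TTTCGCGC in Uhrf1, GCGGGAAA (the reverse complement of TTTCCCGC) in Cdc6 and TTTGGCGC in Mcm6. In the Mcm6 stretch it is flanked on both sides by ATTGG, the NF-Y box read on the other strand. The CHR matches are TTCAAA in Kif11, where the match is on the other strand, a pair of TTTGAA in Mki67 and TTCGAA in Bub1b.
Uhrf1: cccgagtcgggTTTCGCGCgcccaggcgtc
Cdc6: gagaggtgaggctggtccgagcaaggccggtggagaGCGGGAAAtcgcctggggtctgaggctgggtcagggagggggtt
Mcm6: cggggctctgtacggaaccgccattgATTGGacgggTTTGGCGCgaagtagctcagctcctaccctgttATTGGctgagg
Kif11: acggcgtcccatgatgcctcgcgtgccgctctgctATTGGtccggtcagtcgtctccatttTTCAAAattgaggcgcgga
Mki67: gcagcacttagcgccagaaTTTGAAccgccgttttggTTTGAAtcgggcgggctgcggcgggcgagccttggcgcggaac
Bub1b: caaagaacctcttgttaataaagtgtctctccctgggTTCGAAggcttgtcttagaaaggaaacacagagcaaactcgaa

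The Uhrf1 stretch is chr17:56304117-56304146 on the plus strand, that of Cdc6 chr11:98907977-98908056 on the plus strand and that of Mcm6 chr1:128359709-128359788 on the minus strand. The Kif11 stretch is chr19:37376302-37376381 on the plus strand, that of Mki67 chr7:135716435-135716514 on the minus strand and that of Bub1b chr2:118597986-118598065 on the plus strand. Each lies upstream of the start of its window in GRCm38.p6. Uhrf1 has a second annotated start further upstream, and its printed stretch begins 780 bases after that one, whose own window holds no E2F match. Over the whole windows, the 16 E2F matches of the replication genes began between positions -185 and +39 from the start (median -76.5). The 20 CHR matches of the mitotic genes began between -188 and +41, with a median of -18.5, closer to the start. Among the replication genes with a window, the 10 with an E2F match had a median difference of -0.20 and the 13 without one -0.17, and every gene of both kinds was lower.

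**Figure D2:**
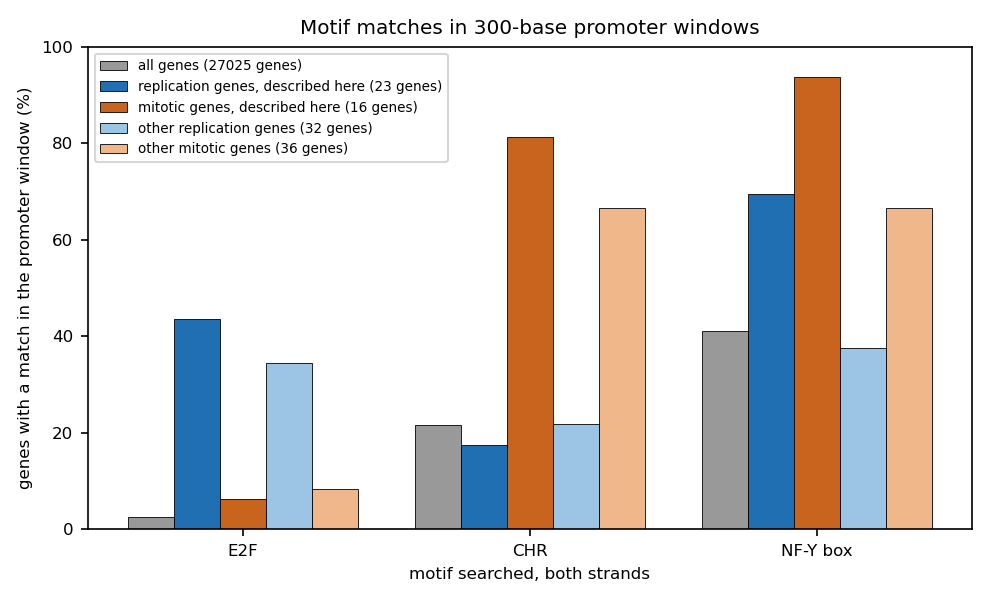
Share of genes (y axis, percent) with at least 1 match to each motif in the 300-base promoter window, for all 27025 genes of the table, for the replication and mitotic genes and for further genes of both kinds. E2F matches reach 43.5% in the replication genes, and CHR matches reach 81.2% in the mitotic genes.

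Uhrf1, which recruits the maintenance DNA methyltransferase to newly replicated DNA, had the largest difference. Its signals were 2129, 2252, 2250, 2268 and 2402 in wild-type replicates 1 to 5 and 1164, 1815, 1743, 1625 and 1739 in mutant replicates 1 to 5. All mutant arrays lay below all wild-type arrays, and mutant replicate 1 was far below the others. The mean log2 signal was 11.14 ± 0.062 (SD, n = 5) for the wild-type arrays, compared with 10.64 ± 0.26 (SD, n = 5) for the mutant arrays, 1.41-fold lower (difference -0.50, SE 0.14, 95% interval -0.80 to -0.20, limma adjusted p = 0.555). The difference was -0.47 within the high-18S and -0.52 within the low-18S arrays, and -0.39 without mutant replicate 1. A dimmer second probe set of Uhrf1 gave -0.33. Ung, the glycosylase that removes uracil from DNA, had signals of 644, 768, 648, 708 and 693 in wild-type replicates 1 to 5 and 538, 610, 521, 453 and 570 in mutant replicates 1 to 5. Here too the genotypes did not overlap, with wild-type replicate 1 and mutant replicate 2 closest to each other. Ung was 1.29-fold lower (difference -0.37, SE 0.11, 95% interval -0.62 to -0.12, limma adjusted p = 0.691), with -0.52 within the high-18S and -0.26 within the low-18S arrays.

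The genes that license and fire origins were lower throughout, with a median of -0.17 over 8 genes. Cdc6, which loads the Mcm helicase together with the origin recognition complex, had signals of 325, 502, 481, 443 and 545 in wild-type replicates 1 to 5 and 297, 377, 290, 356 and 355 in mutant replicates 1 to 5. Wild-type replicate 1 was as low as the mutant arrays, and the other wild-type arrays lay above all of them. Cdc6 was 1.36-fold lower (difference -0.44, SE 0.16, 95% interval -0.79 to -0.089, limma adjusted p = 0.819). Cdt1, the partner of Cdc6 in loading, differed by -0.21 (SE 0.15), and the origin recognition subunits Orc1 and Orc6 by -0.16 (SE 0.14) and -0.17 (SE 0.11). Mcm10, which helps to activate the helicase, differed by -0.25 (SE 0.14). Cdc45, which joins the helicase at firing, differed by -0.13 (SE 0.13), and the GINS subunits Gins1 and Gins2 by -0.037 (SE 0.12) and -0.18 (SE 0.12). Among these 8 genes only Cdc6 reached an unadjusted p under 0.05. Gins1 was at +0.046 without wild-type replicate 3.

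The subunits of the Mcm2 to Mcm7 ring, the replicative helicase, were all lower, with a median difference of -0.20 and a range from -0.40 to -0.12. Mcm2 had signals of 1348, 2045, 1927, 1733 and 1682 in wild-type replicates 1 to 5 and 1020, 1479, 1286, 1231 and 1642 in mutant replicates 1 to 5. The lowest wild-type array, replicate 1, lay within the mutant range, and 3 mutant arrays were below it. Mcm2 was 1.32-fold lower (difference -0.40, SE 0.16, 95% interval -0.76 to -0.034, limma adjusted p = 0.88), but its other probe set gave -0.093 and the mean of both -0.25. Mcm3 had signals of 2154, 2961, 3419, 2993 and 2443 in wild-type replicates 1 to 5 and 2652, 3237, 2369, 1893 and 2416 in mutant replicates 1 to 5. Mutant replicate 2 was the second highest array for this gene, and the genotypes overlapped widely (difference -0.16, SE 0.17). Mcm4 had signals of 2348, 2277, 2699, 2164 and 2646 in wild-type replicates 1 to 5 and 1492, 2079, 2088, 2624 and 2346 in mutant replicates 1 to 5. Mutant replicate 1 was lowest, and mutant replicate 4 was as high as the upper wild-type arrays (difference -0.21, SE 0.16, with 0.015 within the high-18S arrays).

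Mcm5 had signals of 3535, 4939, 5774, 3624 and 4164 in wild-type replicates 1 to 5 and 3712, 4404, 3652, 3830 and 4424 in mutant replicates 1 to 5. No mutant array was below the lowest wild-type array (difference -0.12, SE 0.16). Mcm6 had signals of 2177, 3263, 3269, 2407 and 2865 in wild-type replicates 1 to 5 and 1997, 2522, 1981, 2648 and 2713 in mutant replicates 1 to 5. Its second bright probe set gave -0.12, while a dim one with a mean log2 signal of 4.07 gave +0.94 and turned the mean of the probe sets to +0.19 (brightest probe set: difference -0.23, SE 0.16). Mcm7 had signals of 6785, 7090, 12151, 7019 and 7350 in wild-type replicates 1 to 5 and 6878, 8797, 5826, 6267 and 7300 in mutant replicates 1 to 5. Wild-type replicate 3 was far above all other arrays, and without it the difference of -0.18 (SE 0.19) shrank to -0.024. All 4 probe sets of Mcm7 were lower in the mutant, between -0.29 and -0.18.

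**Figure D3:**
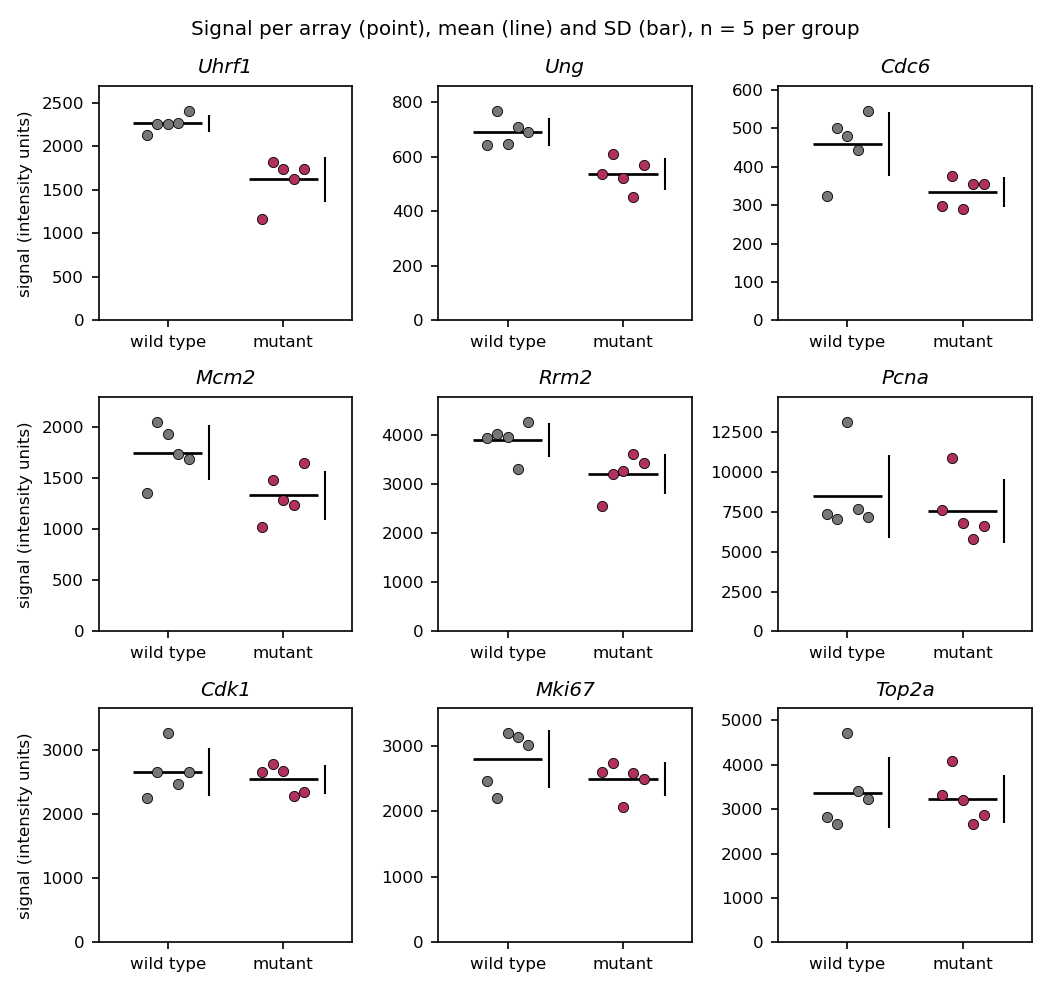
Signal of 9 genes in each array (y axis, intensity units, from 0), with the mean (line) and SD (bar) of the 5 arrays per genotype. Uhrf1 and Ung show no overlap between genotypes, whereas Pcna and Top2a are highest in wild-type replicate 3 and mutant replicate 2.

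The 7 genes of the replication fork were all lower, with a median of -0.13. Pcna, the sliding clamp, had the brightest probe set of the replication genes, with signals of 7353, 7051, 13132, 7682 and 7203 in wild-type replicates 1 to 5 and 7625, 10903, 6811, 5774 and 6599 in mutant replicates 1 to 5. Wild-type replicate 3 and mutant replicate 2 were high and the other 8 arrays lay between 5774 and 7682. These same arrays had the brightest hybridisation controls, whose log2 signals averaged 11.48 and 11.87, the other arrays lying between 9.79 and 10.87. The Pcna difference was -0.16 (SE 0.22), -0.13 without those 2 arrays and +0.0078 without wild-type replicate 3 alone. The clamp loader subunits Rfc2, Rfc3 and Rfc4 differed by -0.019 (SE 0.11), -0.14 (SE 0.15) and -0.044 (SE 0.14), and Rfc2 and Rfc4 turned positive when single arrays were left out. The polymerase subunits Pola1 and Pole differed by -0.26 (SE 0.18) and -0.13 (SE 0.17), and Prim1, the primase, by -0.095 (SE 0.11).

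Rrm2, the regulated subunit of ribonucleotide reductase, which makes deoxynucleotides, had signals of 3928, 4020, 3956, 3305 and 4257 in wild-type replicates 1 to 5 and 2544, 3199, 3261, 3605 and 3421 in mutant replicates 1 to 5. Mutant replicate 1 was lowest, and wild-type replicate 4 lay within the mutant range. Rrm2 was 1.22-fold lower (difference -0.28, SE 0.13, 95% interval -0.56 to -0.0054, limma adjusted p = 0.902), and its other probe sets gave -0.25 and -0.22. Rrm1, the large subunit, had the widest spread of the replication genes and differed by -0.25 (SE 0.28). Tyms, thymidylate synthase, was the dimmest of the replication genes, with signals of 101, 132, 71.5, 76.5 and 116 in wild-type replicates 1 to 5 and 63.8, 99, 83.6, 96.3 and 94.5 in mutant replicates 1 to 5. The genotypes overlapped (difference -0.16, SE 0.20). Its other probe sets, with mean log2 signals of 6.14, 4.18 and 2.77, were at -0.25, +1.42 and -0.73. The cyclins that start S phase, Ccne1 and Ccne2, differed by -0.013 (SE 0.15) and -0.17 (SE 0.19), and the transcription factor E2f1 by -0.25 (SE 0.17). Ccne1, the smallest difference of the replication genes, was +0.15 on the high-18S and -0.12 on the low-18S arrays.

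Genes of mitosis were mostly lower too, by smaller amounts (14 of 17 lower, median -0.069), and each 95% interval included 0. Cdk1, the kinase that drives entry into mitosis, had signals of 2253, 2654, 3257, 2458 and 2658 in wild-type replicates 1 to 5 and 2645, 2770, 2668, 2272 and 2334 in mutant replicates 1 to 5. No mutant array was below the lowest wild-type array (difference -0.059, SE 0.12). Its cyclins Ccna2 and Ccnb2 differed by -0.069 (95% interval -0.28 to 0.14) and -0.033 (-0.27 to 0.21). Cdc20, the activator of the anaphase-promoting complex, had signals of 3300, 3590, 2689, 2698 and 3444 in wild-type replicates 1 to 5 and 2255, 2615, 2969, 3468 and 3716 in mutant replicates 1 to 5. Mutant replicate 5 was the highest of all arrays for it and mutant replicate 1 the lowest (difference -0.078, SE 0.16). Aurkb, a kinase of the chromosomal passenger complex, was the dimmest of the mitotic genes, with signals of 381, 581, 403, 478 and 483 in wild-type replicates 1 to 5 and 400, 436, 402, 386 and 465 in mutant replicates 1 to 5. Wild-type replicate 2 was highest, and no mutant array was below the lowest wild-type one (difference -0.14, SE 0.13).

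Among the other mitotic kinases and checkpoint genes, Plk1 differed by -0.070 (SE 0.14), Aurka by -0.058 (SE 0.12), Ttk by -0.031 (SE 0.15), and the spindle checkpoint kinases Bub1 and Bub1b by -0.13 (SE 0.16) and -0.097 (SE 0.16). Mki67, the nuclear antigen used as a marker of cycling cells, had signals of 2461, 2209, 3191, 3134 and 3005 in wild-type replicates 1 to 5 and 2602, 2732, 2062, 2576 and 2487 in mutant replicates 1 to 5. Wild-type replicates 3 to 5 were above all mutant arrays and the other 2 were not (difference -0.16, SE 0.14). Top2a, the topoisomerase that untangles replicated chromosomes, had the brightest probe set of the mitotic genes, with signals of 2832, 2671, 4708, 3412 and 3231 in wild-type replicates 1 to 5 and 3306, 4071, 3208, 2667 and 2872 in mutant replicates 1 to 5. As for Pcna, wild-type replicate 3 and mutant replicate 2 were highest (difference -0.049, SE 0.18, and +0.079 without wild-type replicate 3).

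Kif11, the kinesin that separates the spindle poles, had the largest difference of the mitotic genes, -0.21 (SE 0.12), with a limma adjusted p of 0.942, and its other probe sets gave -0.29 and -0.52. Birc5, the passenger complex subunit survivin, differed by 0.019 (SE 0.14). The centromere histone Cenpa differed by 0.014 (SE 0.12) and the kinetochore motor Cenpe by 0.10 (SE 0.14), while the kinetochore protein Cenpf was at -0.073 (SE 0.15). With median centring of the arrays Birc5 and Cenpa turned to -0.039 and -0.044. The lowest and highest bounds of the 95% intervals of the mitotic genes were -0.49 and +0.42.

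**Figure D4:**
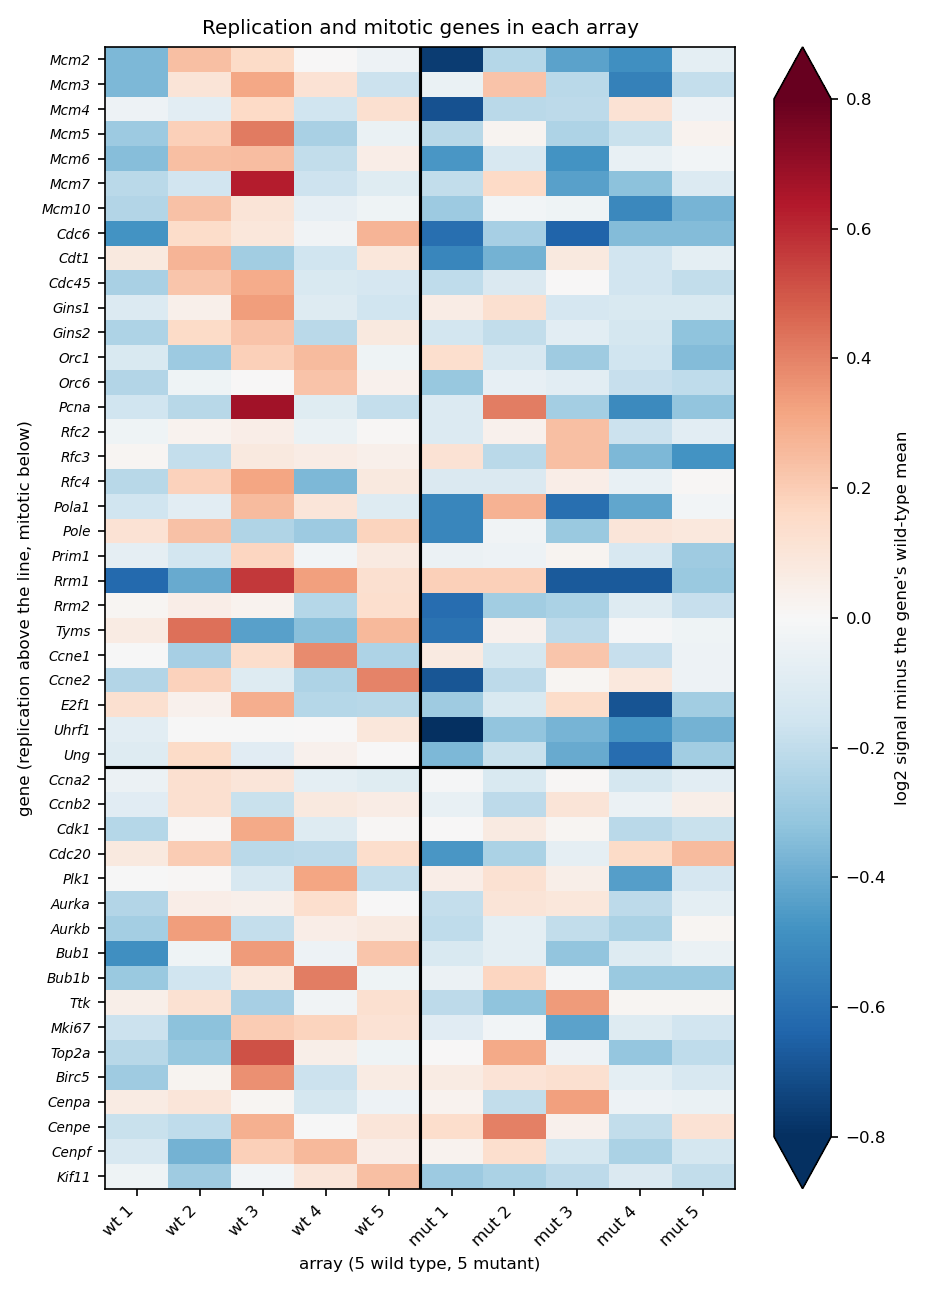
Log2 signal of each gene in each array minus the gene's wild-type mean (colour), with 29 replication genes above and 17 mitotic genes below the horizontal line, and 5 wild-type arrays left and 5 mutant arrays right of the vertical line. The upper right block is mostly blue (lower), with the darkest cells in mutant replicate 1, whereas the lower right block is mixed.

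The replication and mitotic genes were also set side by side within each array, as the mean over genes of the log2 signal minus the gene's wild-type mean. For the replication genes this mean was -0.16, 0.044, 0.16, -0.063 and 0.019 in wild-type replicates 1 to 5 and -0.30, -0.065, -0.18, -0.26 and -0.17 in mutant replicates 1 to 5. Wild-type replicate 1 lay within the mutant range, and mutant replicate 2 was level with the lower wild-type arrays. For the mitotic genes it was -0.15, -0.035, 0.085, 0.047 and 0.048 in wild type and -0.081, -0.0062, -0.018, -0.15 and -0.073 in the mutant, and the genotypes overlapped widely. The replication mean minus the mitotic mean was -0.012, 0.078, 0.072, -0.11 and -0.029 in wild type and -0.22, -0.059, -0.17, -0.10 and -0.10 in the mutant. It was below 0 in all 5 mutant arrays and in 3 of the 5 wild-type arrays, and wild-type replicate 4 lay within the mutant range. No test was made on these means, because the genes were chosen together. The difference between the medians of the replication and mitotic genes was -0.10, and it became -0.18 without wild-type replicate 4.

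Single arrays contributed unequally. The lowest of the 10 values fell in a mutant array for 24 of the 29 replication genes, of which 9 in mutant replicate 1, 6 in replicate 4, 5 in replicate 3, 4 in replicate 5 and none in replicate 2. The highest value fell in a wild-type array for 26 of them, 13 in wild-type replicate 3. For the mitotic genes the lowest value was in a mutant array for 10 of 17 and the highest in a wild-type array for 13 of 17. The same shares over all genes were not computed, so these counts have no background beside them. Without wild-type replicate 3 and mutant replicate 2, the arrays with the brightest hybridisation controls, 26 of 29 replication genes (median -0.18) and 14 of 17 mitotic genes (median -0.062) were lower. Without these arrays 47.7% of all genes were lower. Wild-type replicate 3 and mutant replicate 2 also had the highest ratio of the 3′ to the 5′ probe set of beta-actin, a sign of RNA or cRNA length, at 0.94 and 0.93 on the log2 scale against 0.39 to 0.71 on the others. The same ratio for Gapdh did not set them apart together. It was 0.0033 in wild-type replicate 3, within the -0.35 to 0.070 of the other arrays, and -0.41 in mutant replicate 2, the lowest of all. The part of these array properties in the result was not tested beyond leaving the arrays out.

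**Figure D5:**
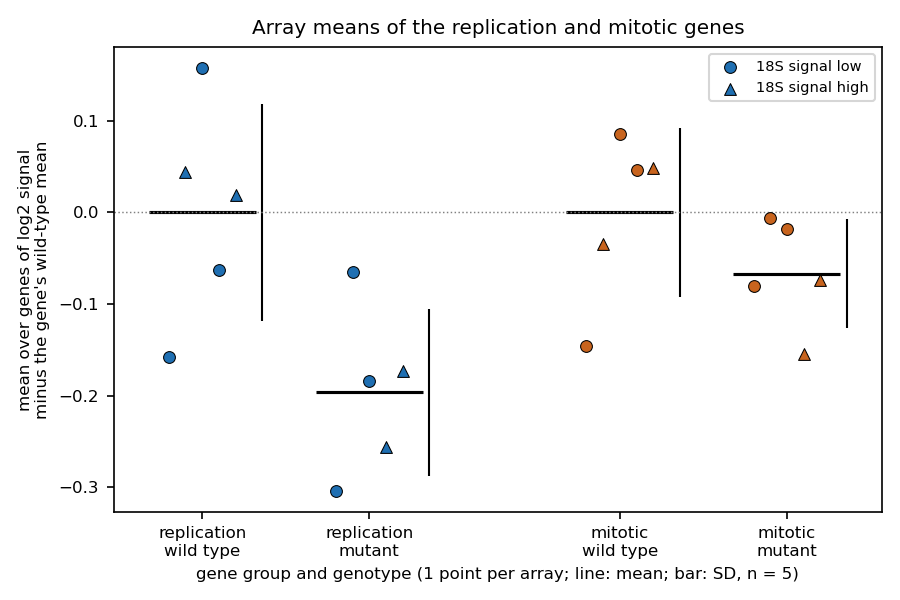
Mean over the replication (blue) and mitotic (orange) genes of the log2 signal minus the gene's wild-type mean (y axis), 1 point per array, with circles for low-18S and triangles for high-18S arrays, lines for the mean and bars for the SD of 5 arrays. The replication genes average -0.20 ± 0.091 (SD, n = 5) in the mutant against a wild-type SD of 0.12, and the mitotic genes -0.067 ± 0.059 (SD, n = 5) against 0.093.

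Counted by probe set rather than by gene, 60 of 67 probe sets of the replication genes and 25 of 35 of the mitotic genes were lower in the mutant, with medians of -0.18 and -0.069. At an unadjusted p under 0.05, 6 replication and 1 mitotic probe sets were lower and none was higher. The 6 include dimmer probe sets of Cdt1 and Mcm5, with mean log2 signals of 2.19 and 5.84. The shares over all probe sets were not computed, so these probe set counts have no background beside them. With the mean of each gene's probe sets, 26 of 29 replication genes and 11 of 17 mitotic genes were lower, against 46.2% of all genes.

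Other genes of the pathway, listed with earlier results of these data known, were none of them called. For comparison, 45.1% of all genes were lower, 2.08% lower at an unadjusted p under 0.05 and 0.555% lower without overlap. Of 34 further replication genes measured, 30 were lower (median -0.12), 3 of them at an unadjusted p under 0.05 and none higher at that level. Those 3 were Gmnn, the inhibitor of Cdt1, at -0.32 (SE 0.11), the chromatin remodeller Hells at -0.31 (SE 0.12) and the fork protein Wdhd1 at -0.23 (SE 0.10). Gmnn had signals of 1520, 1538, 1712, 1326 and 1535 in wild-type replicates 1 to 5 and 1176, 1325, 1305, 1126 and 1171 in mutant replicates 1 to 5. Its genotypes did not overlap, by a margin of about 1 signal unit. Dnmt1, the methyltransferase that Uhrf1 recruits, differed by -0.13 (SE 0.11). Of 42 further mitotic genes, 33 were lower (median -0.078) and none reached an unadjusted p under 0.05 in either direction. The centriole kinase Plk4 at -0.20 (SE 0.13), the spindle checkpoint gene Mad2l1 at -0.19 (SE 0.12) and the kinetochore gene Spc25 at -0.23 (SE 0.15) had the smallest p among them. Promoters of these further genes carried an E2F match in 34.4% of 32 replication and 8.33% of 36 mitotic genes, and a CHR match in 21.9% and 66.7%.

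Of 14 genes of the replication checkpoint and repair, 13 were lower (median -0.19), with Brca1 and Rad54l, both of recombination repair, at -0.40 (SE 0.15) and -0.40 (SE 0.15) at an unadjusted p under 0.05, and Usp1 at -0.27 (SE 0.12). Among all genes 45.1% were lower and 2.08% were lower at that p. The mean of the 4 probe sets of Rad54l gave -0.096. Among 18 E2F and DREAM regulators 12 were lower (median -0.075). E2f8, a repressor of the E2F family, and E2f3, an activator, were at -0.47 (SE 0.17) and -0.31 (SE 0.12), with unadjusted p under 0.05, but averaging their probe sets gave +0.073 and -0.087. E2f5 was at -0.20 (SE 0.10), and Foxm1 and Mybl2, regulators of mitotic genes, at 0.049 (SE 0.16) and -0.060 (SE 0.14). Averaging probe sets turned these to -0.36 and +0.16, so neither has a settled direction.

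Upstream of S phase, 7 of 9 G1 cyclins, kinases and Myc genes were lower (median -0.12). The shares over all genes were 45.1% lower, 2.08% lower at an unadjusted p under 0.05 and 0.555% lower without overlap. Mycn, a Myc family transcription factor of the kidney mesenchyme, had signals of 530, 589, 607, 658 and 606 in wild-type replicates 1 to 5 and 445, 528, 411, 480 and 471 in mutant replicates 1 to 5. The genotypes did not overlap, with mutant replicate 2 closest to wild-type replicate 1 (difference -0.36, SE 0.11, and -0.14 when its probe sets were averaged). Myc was at -0.39 (SE 0.12), and both had an unadjusted p under 0.05. The D-type cyclin Ccnd2 was at -0.16 (SE 0.093, limma unadjusted p = 0.108). Its genotypes did not overlap, but only narrowly, with a lowest wild-type signal of 3903 and a highest mutant signal of 3886. Ccnd1, Cdk2 and Cdk4 were at -0.12 (SE 0.14), -0.063 (SE 0.29) and -0.032 (SE 0.17). Cdk2 was at +0.24 on the high-18S arrays and -0.26 on the low-18S arrays, and Cdk4 at -0.090 and +0.0061. Of 7 CDK inhibitors, which brake the cycle, 5 were higher (median +0.15), as were 9991 of all 18193 genes. Cdkn2d was at 0.27 (SE 0.12) with an unadjusted p under 0.05, reached in that direction by 3.41% of all genes. Cdkn1c, a brake known from differentiating cells, was at 0.24 (SE 0.15), Cdkn1b at 0.15 (SE 0.29) and Cdkn1a at 0.15 (SE 0.26). Cdkn1b was at +0.57 on the high-18S arrays but -0.13 on the low-18S arrays. Cdkn1a was at -0.070 without mutant replicate 2 and at -0.092 with its probe sets averaged. Cdkn2a was too dim for a reading, with signals of 2.47 to 32.1.

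Markers of the tissue and of other cell types gave the setting for these values. The mesenchyme label was borne out by Six2, Wt1 and Gdnf, with wild-type signals of 1061 to 1774, 771 to 1315 and 260 to 407, and Pax2 is not analysed here. The marker lists, too, were chosen with earlier results known. Of 10 nephron progenitor markers 9 were lower, with a median difference of -0.59, against 45.1% of all genes lower. Of these 10 markers, 7 were lower at an unadjusted p under 0.05 (2.08% of all genes) and 5 were lower without overlap (0.555% of all genes). Their summed signal was 8066 to 9866 in wild type and 4108 to 7661 in the mutant, without overlap. Gdnf, the ligand that draws out the ureteric bud, was at -1.12 (SE 0.23), the progenitor factor Six2 at -0.66 (SE 0.22) and Wt1 at -0.52 (SE 0.19), while Osr1, an early mesenchyme factor, was at -0.037 (SE 0.27) and at +0.18 without mutant replicate 1. The median of the replication genes in the same arrays was -0.17. Of 8 endothelial markers all were higher (summed signal 2674 to 3470 and 2699 to 3508), and of 9 macrophage markers 8 (1388 to 1903 and 1329 to 2589). The ureteric bud markers (4 of 9 higher, 1742 to 3070 and 1310 to 3565), renal stroma (4 of 5 higher, 6952 to 8338 and 7347 to 9792), erythroid (4 of 7 higher, 26310 to 54752 and 28805 to 48411) and neural markers (4 of 6 higher, 477 to 820 and 672 to 1131) had summed signals that overlapped between genotypes, as did the endothelial and macrophage markers. At an unadjusted p under 0.05, 2 neural markers (list median +0.46) and 1 macrophage marker (list median +0.34) were higher. In the renal stroma list 1 marker was higher and 1 lower at that p. The neural and the renal stroma list each had 1 marker higher without overlap. Of all 18193 genes 9991 were higher, 3.41% higher at that p and 0.654% higher without overlap. No endothelial, ureteric bud or erythroid marker reached that p. None of the markers in any of these lists was at 0 on any array. The part that a changed share of cell types has in the values of the cycle genes was not tested. Wnt9b, whose source the dissection was meant to remove, had signals of 81.7, 99.7, 89.1, 92.1 and 78.2 in wild-type replicates 1 to 5 and 78.6, 106, 100, 64.2 and 41.8 in mutant replicates 1 to 5 (difference -0.24, SE 0.24, limma adjusted p = 0.996). The mean of its probe sets gave -0.51. How much ureteric bud was left in the pools was not tested, and the Wnt9b values check nothing about the labels.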

How the data were processed

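RNA from 10 pools of E11.5 mesenchyme was amplified, labelled with biotin and hybridised to Affymetrix Mouse Genome 430 2.0 arrays, per the labels' protocols. The authors deposited 1 intensity per probe set and array, scaled so that the mean without the lowest and highest 2% was 250.0 on every array. How probe sets were summarised is not stated in the labels or file headers used. Of 45101 probe sets, 64 were controls and left out, 34945 carried 1 symbol in the platform annotation, 932 carried several genes and were named for none, and 34741 were matched to RefSeq (GRCm38.p6) by gene identifier.

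Signals were transformed to log2 (deposited intensity plus 1), and the brightest probe set per gene was tested with limma 3.58.1 in R 4.3.3 (lmFit and eBayes over 5 against 5 arrays, Benjamini-Hochberg over 18193 genes, threshold 0.05). The procedure was tried on simulated data with changes larger than any difference of the replication and mitotic genes. Whether it could call differences as small as theirs was not tested. Adjusted p, standard errors and 95% intervals come from the limma fit of the real arrays. The number of arrays limits the precision. The pools are described as distinct.

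The rule for names was: every listed gene with its difference. Signals in every array were given for genes with an unadjusted p under 0.05, the 2 brightest and the dimmest of each kind, Mcm2 to Mcm7, Pcna, Cdk1, Mki67 and Top2a. Of each other list the 3 genes with the smallest p were named. Promoters were shown for up to 3 genes of each kind with the motif. Dnmt1, Foxm1, Mybl2, Ccnd1, Cdk2, Cdk4, Cdkn1a, Cdkn1b, Six2, Wt1, Osr1 and Gdnf were named outside that rule, as were the array values of Gmnn and Mycn, after their values were seen. The members and lists were chosen with earlier results of these data known. The alternatives were other scalings, pseudocounts, probe set rules, moderation, array weights, blocks, a filter on dim genes, the 18S array sets and leaving out arrays.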

Additional observations from a re-analysis of the deposited data

Results flagged for a closer look

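In 10 of 158 groups of 5 arrays, 1 array stood far from the other 4 in log2 signal, where chance marks about 1 in 20 groups (7.9 groups). Wild-type replicate 3 was high for Mcm7 (13.57, others 12.73 to 12.84) and Pcna (13.68, others 12.78 to 12.91), and low for the dim Cdkn2a (1.80, others 4.15 to 4.96). Wild-type replicate 2 was low for the clamp loader gene Rfc3 (9.64, others 9.84 to 9.91), and wild-type replicate 4 for Myc (8.90, others 9.20 to 9.27). Mutant replicate 1 was low for Uhrf1 (10.19, others 10.67 to 10.83), and mutant replicate 3 for Bub1 (10.05, others 10.24 to 10.31). Mutant replicate 1 was also low for Osr1 (7.54, others 8.53 to 8.72), and mutant replicate 2 was high for Cdk4 (12.52, others 11.85 to 12.04) and Cdkn1a (8.16, others 6.93 to 7.26).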

How the results depend on the processing

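No replication or mitotic gene was called under any alternative run. The number of genes called over the whole table was 0 with the 18S set as a block, with the title wording as a block, with the mean of probe sets, within the high-18S arrays, within the low-18S arrays and after dropping the 2 brightest-control arrays, 10 with trend and robust moderation, 6 without the dimmest 40% of genes, and 0 to 2 when 1 array was left out. The count of replication genes lower at an unadjusted p under 0.05, an outcome added after seeing the data, was 3 within the high-18S arrays, 0 within the low-18S arrays, 3 without the 2 brightest-control arrays and 3 to 5 with 1 array left out. For the mitotic genes it was 1 with the mean of probe sets and 0 to 1 with 1 array left out, and 9 mitotic genes were lower within the low-18S arrays. The median of the replication genes minus that of the mitotic genes ranged from -0.18 to -0.081 with 1 array left out. Median centring turned the genes at an unadjusted p under 0.05 from 379 lower and 620 higher to 571 lower and 414 higher. The following differences changed sign, and the cause was not tested. With the mean of probe sets these were Mcm6 at 0.19, Rfc2 at 0.032, Tyms at 0.071, Cdc20 at 0.012, Bub1b at 0.0088, Ttk at 0.088, Top2a at 0.068, Cenpa at -0.032, E2f8 at 0.073, Cdk4 at 0.0096, Cdkn1a at -0.092, Foxm1 at -0.36 and Mybl2 at 0.16. Within the high-18S arrays these were Mcm4 at 0.015, Ccne1 at 0.15, Cdc20 at 0.030, Birc5 at -0.15, Cenpa at -0.079, Cdk2 at 0.24 and Cdkn1a at -0.070. Within the low-18S arrays these were Rfc2 at 0.066, Rfc4 at 0.030, Ccnb2 at 0.0070, Cdk1 at 0.039, Plk1 at 0.013, Aurka at 0.020, Ttk at 0.019, Wnt9b at 0.11, Cdk4 at 0.0061, Cdkn1b at -0.13, Foxm1 at -0.11, Mybl2 at 0.027 and Osr1 at 0.069. Without the 2 brightest-control arrays these were Gins1 at 0.0043, Rfc4 at 0.052, Ccne1 at 0.054, Cdk2 at 0.045, Cdkn1a at -0.062 and Foxm1 at -0.0051. With median centring these were Birc5 at -0.039, Cenpa at -0.044 and the difference of Foxm1 at -0.0087. With array weights these were Ccne1 at 0.044. Single dimmer probe sets gave Mcm3 at 0.057, Mcm6 at 0.94, Mcm10 at 0.076, Mcm10 at 0.048, Rfc2 at 0.016, Rfc2 at 0.10, Tyms at 1.42, Cdc20 at 0.020, Cdc20 at 0.094, Bub1b at 0.18, Ttk at 0.21, Top2a at 0.47, Cenpa at -0.35, Cenpe at -0.051 and Cenpf at 0.0051. With 1 array left out the differences ranged for Birc5 from -0.053 to 0.11, Bub1b from -0.17 to 0.0049, Ccnb2 from -0.077 to 0.011, Ccne1 from -0.080 to 0.081, Cdc20 from -0.16 to 0.019, Cdk1 from -0.12 to 0.017, Cdk2 from -0.19 to 0.15, Cdk4 from -0.15 to 0.062, Cdkn1a from -0.070 to 0.28, Cenpa from -0.066 to 0.066, Foxm1 from -0.055 to 0.14, Gins1 from -0.079 to 0.046, Mybl2 from -0.15 to 0.0038, Osr1 from -0.14 to 0.18, Pcna from -0.30 to 0.0078, Plk1 from -0.12 to 0.022, Rfc2 from -0.084 to 0.019, Rfc4 from -0.13 to 0.035, Top2a from -0.14 to 0.079 and Ttk from -0.12 to 0.042. The labels give the genotypes no shared replicate numbers. Title wording joins 1 mutant with 1 wild-type array in 3 cases, with no stated reason, and a block on it changed no call of a replication or mitotic gene. The arrays outside these pairs were put in a shared block. Mutant replicate 1 and wild-type replicate 4 were paired by MM2, but the title of mutant replicate 2 has the similar MM_2, so that pairing was a choice. Within the 3 pairs as chosen, the MM2 pair first, the mean of the replication genes differed by -0.24, -0.28 and -0.22, that of the mitotic genes by -0.13, -0.20 and -0.039, and the replication minus the mitotic mean by -0.11, -0.072 and -0.18.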
